A study of Proteus anguinus with 14 samples.

Results

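In the olm, 10 assembled transcripts carried 1 of 5 symbols of mucus and mucosal defence, MUC2, TFF2, AGR2, REG4 or GP2. They were taken by symbol alone, in any case of letters, and every assembled copy was kept, which gave 10 of the 18924 rows of the expression table: 2 rows for MUC2, 1 for TFF2, 2 for AGR2, 1 for REG4 and 4 for GP2. Copies are told apart here by their assembly number. All 10 entered the tests, of which 3 (MUC2 DN253877 and the GP2 rows DN42169 and DN4280) did so only through the skin samples and 1 brain sample each.

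The olm (Proteus anguinus) is a blind, aquatic cave salamander that keeps its gills for life and has lungs as well. RNA came from 2 samples each of gut, skin, brain and heart and from 3 each of lung and liver, taken from 3 wild-caught animals named p4, p5 and p6. All 3 had been kept in darkness as uninfected controls of a fungal infection trial, so that no group received a treatment; age and sex are not given in the sources used here, nor is the stretch of gut or the patch of skin that was sampled. Every organ thus stands for 2 or 3 animals, with gut from p4 and p5, skin from p4 and p6, and lung from all 3.

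The tissue field of the labels exchanges gut with heart and liver with lung, while the sample titles match the column names of the table, and groups were taken from the titles. Marker genes went with the titles: FABP1 of the absorbing gut cell stood at 8233 and 17900 normalized TPM in the gut samples and at 28.7 or less elsewhere, the keratin KRT5 at 5233 and 1957 in the skin samples and at 188 or less elsewhere, and the surfactant protein SFTPB at 29.8 to 41.5 in lung and at 2.84 or less elsewhere. TPM scale reads by transcript length and by the sample's sum, so that levels compare between genes, and normalized TPM are TPM divided by a factor per sample that ran from 0.519 in the p4 lung sample to 2.15 in the p6 brain sample. The factors were low in lung (0.519 to 0.740), where the globin HBE1 alone held 41.4% to 53.4% of TPM. Without them the median gene shifted by -0.61 on the log2 scale in lung against all other samples, by -0.47 in lung against gut and by -0.53 in lung against skin, and by less than 0.1 in gut or skin against all other samples and in gut against skin. In bulk tissue a lower share of the cells that make a transcript and less transcript in each such cell cannot be told apart.

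Mucus is a gel of secreted mucins that covers moist epithelia, and its main intestinal polymer in mammals is MUC2, made by goblet cells. AGR2 is a disulfide isomerase of the endoplasmic reticulum that mouse goblet cells need to make MUC2, and TFF2 is a small trefoil peptide that mammals secrete together with mucins, above all in the stomach. REG4 is a secreted lectin of the Reg family found in mucin-secreting and hormone-secreting cells of the human gut. GP2 is a zona pellucida domain glycoprotein of pancreatic secretory granules and, in mice, a receptor for bacteria on the cells that sample the gut content.

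The 5 symbols divided the gut and the skin between them. MUC2 DN10017, TFF2 and REG4 were abundant in gut and near 0 in skin, and the main AGR2 transcript was abundant in both. The GP2 rows DN25453, DN42169 and DN4280 were high in skin and low or listed at 0 in gut. The GP2 row DN1888 overlapped, with 62.1 normalized TPM in the p4 gut sample and 48.8 in the p6 skin sample. Together the 10 rows held 0.501% of all TPM in the p4 gut sample and 2.04% in the p5 gut sample, 0.447% and 0.163% in the p4 and p6 skin samples, and at most 0.0544% in any other sample.

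**Figure D1:**
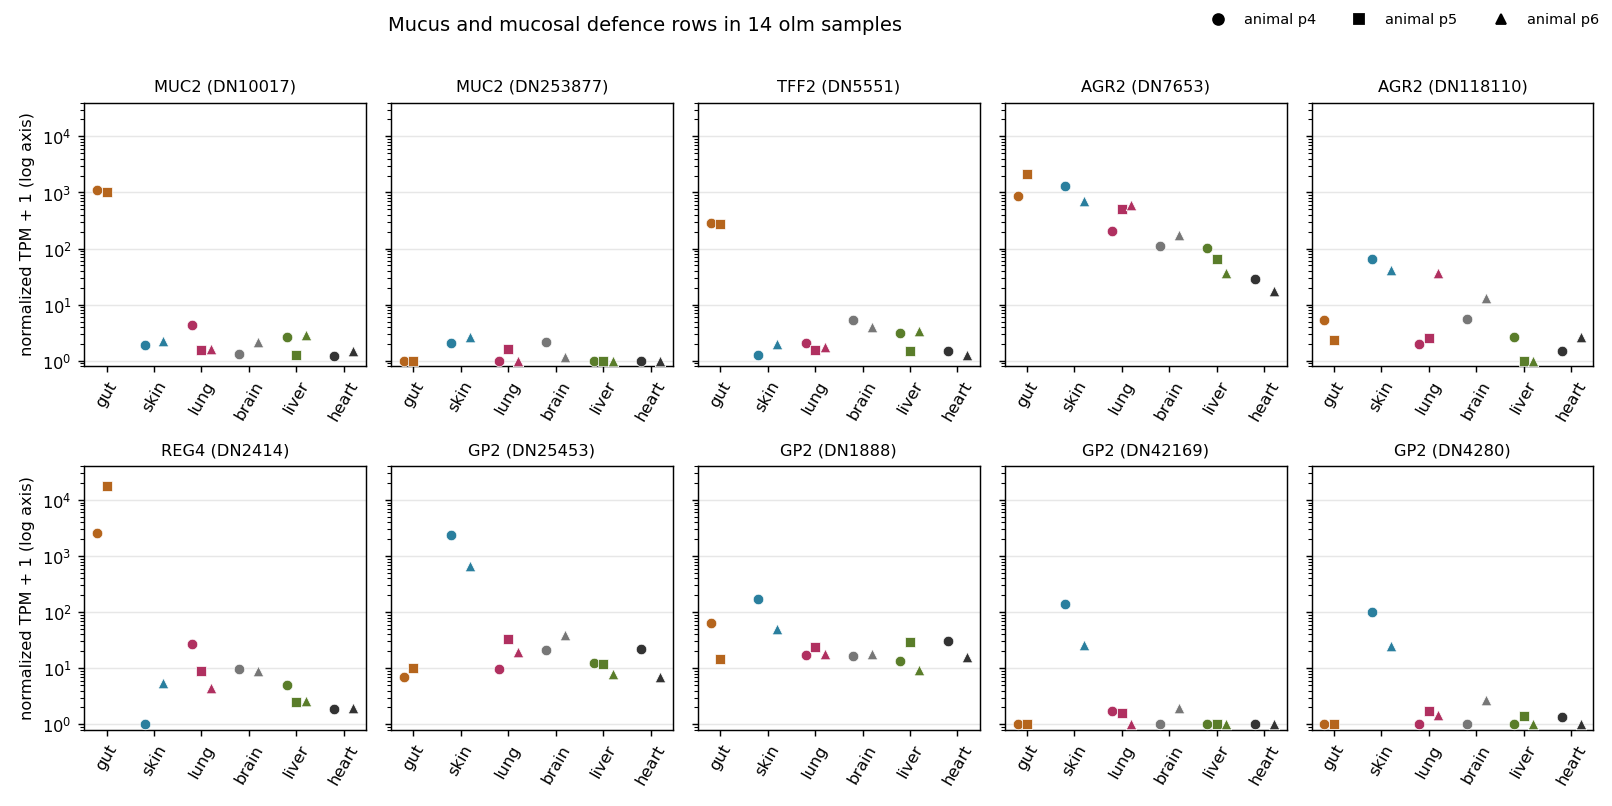
Normalized TPM + 1 (log axis) of each of the 10 rows in the 14 samples, grouped by organ on the horizontal axis, with 1 point per sample and the symbol shape giving the animal. MUC2 (DN10017), TFF2 and REG4 stand high in the 2 gut samples alone, the GP2 rows DN25453, DN42169 and DN4280 in the 2 skin samples alone, and AGR2 (DN7653) is above 200 in all samples of gut, skin and lung.

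The secreted mucin comes first. The MUC2 row DN10017, annotated with the C-terminal cystine knot through which mucins pair, stood at 1085 normalized TPM in the p4 gut sample and at 1025 in the p5 gut sample, where it ranked 99th and 106th of all rows. In skin it stood at 0.880 and 1.22 normalized TPM, in the lung samples of p4, p5 and p6 at 3.38, 0.531 and 0.645, in brain at 0.293 and 1.12, in heart at 0.239 and 0.483, and in liver at 1.64, 0.263 and 1.92. The gut samples were thus far above every other sample, and the other 5 organs lay between 0.239 and 3.38, with heart below skin and lung and the other ranges overlapping. Gut was higher than all other samples by 9.12 on the log2 scale (standard error 0.41, adjusted p = 1.38e-09 from limma) and higher than skin by 9.01 (standard error 0.53, adjusted p = 7.33e-07).

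The other MUC2 row, DN253877, is annotated with a C8 domain and was scarce throughout. It was listed at 0 in both gut samples, both heart samples and all 3 liver samples, and stood at 1.05 and 1.61 normalized TPM in skin, 1.16 and 0.178 in brain and 0.611 in the p5 lung sample alone among the lungs. The skin and brain ranges overlapped. It was called higher in skin than in gut (adjusted p = 0.0273), at levels near 1 normalized TPM, and the call was lost without any 1 of the 2 gut and 2 skin samples (adjusted p = 0.0546 to 0.187). Against all other samples it was not called in skin (adjusted p = 0.0644), and was called without the p4 brain or the p5 lung sample (adjusted p = 0.00414 and 0.0449). The row had entered the tests only through the skin samples and 1 brain sample, so that these calls are no support for a skin pattern. It made up 54.3% and 56.9% of the little MUC2 signal in skin and none of it in gut.

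TFF2, the trefoil peptide, followed MUC2 closely. Its row DN5551 stood at 289.6 normalized TPM in the p4 gut sample and 271.6 in the p5 gut sample, at 0.272 and 1.01 in skin, and at 1.07, 0.557 and 0.773 in lung. The next highest samples were the 2 brain samples with 4.23 and 2.91 normalized TPM, and heart and liver lay between 0.266 and 2.46. The brain samples were above every skin, lung, heart and liver sample, and gut was above all of them. Gut was higher than all other samples by 7.04 on the log2 scale (standard error 0.49, adjusted p = 1.79e-07) and higher than skin by 7.46 (standard error 0.41, adjusted p = 4.14e-07).

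REG4, the lectin, was the most abundant of the 10 rows. It stood at 2616 normalized TPM in the p4 gut sample and 17545 in the p5 gut sample, where it ranked 56th and 10th of all rows. In skin it was listed at 0 in p4 and stood at 4.50 in p6, and the lung samples of p4, p5 and p6 had 26.1, 7.96 and 3.45. The 2 gut samples were both above every other sample, the highest of which was the p4 lung sample. Brain had 8.85 and 7.93 normalized TPM, liver 1.55 to 3.93 and heart 0.844 to 0.950. Gut was higher than skin by 11.50 on the log2 scale (standard error 0.97, adjusted p = 1.17e-05), with a 95% interval from 9.38 to 13.62, the widest of the 3 gut rows.

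AGR2, the disulfide isomerase, was the row that gut and skin shared. DN7653 stood at 848 and 2126 normalized TPM in gut p4 and p5 and at 1303 in skin p4 and 714 in skin p6, so that the ranges overlapped. The lung samples of p4, p5 and p6 had 204, 503 and 603 normalized TPM, brain 111 and 171, liver 99.97, 64.6 and 35.7, and heart 27.5 and 16.7. By its mean the order of organs was gut, skin, lung, brain, liver and heart, and gut and skin were the only neighbours in it whose samples overlapped. Gut and skin differed by 0.48 on the log2 scale (standard error 0.62, adjusted p = 0.762), with a 95% interval from -0.87 to 1.83. AGR2 DN7653 was called higher neither in gut nor in skin against all other samples (adjusted p = 0.388 and 0.569), a comparison in which the other of these organs stands on the far side. Set against the average of 5 organ means, in a model with a mean for each organ, it was called in both, with log2 differences of 3.17 in gut (adjusted p = 9.8e-04) and 2.60 in skin (adjusted p = 0.00411).

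The minor AGR2 row, DN118110, had another distribution. It stood at 63.5 and 40.8 normalized TPM in skin, 4.23 and 1.30 in gut, and 1.03, 1.53 and 35.8 in the lung samples of p4, p5 and p6. Brain had 4.44 and 12.1 normalized TPM, heart 0.504 and 1.70, and liver 1.60 in p4 and 0 in p5 and p6. Both skin samples were above all others, and the p6 lung sample came next and stood apart from the other lungs. DN118110 was called higher in skin than in gut, by 3.90 on the log2 scale (standard error 1.11, adjusted p = 0.0473). That call was lost without any 1 of the brain, gut, heart, liver or skin samples (adjusted p = 0.0542 to 0.240) and with the animal as a replicate block (adjusted p = 0.130 by the animal of the title). In skin against all other samples it was not called (adjusted p = 0.0579), but was without the p6 brain or the p6 lung sample (adjusted p = 0.0301 and 0.00636). The main row DN7653 made up 90.7% to 100% of AGR2 in every sample.

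GP2, the granule and bacteria-binding glycoprotein, was higher in skin than in gut in all rows but DN1888, whose samples overlapped. The most abundant row, DN25453, annotated with a zona pellucida domain, stood at 2407 and 671 normalized TPM in skin p4 and p6 and at 5.98 and 9.30 in the p4 and p5 gut samples. The lung samples had 8.55, 31.7 and 18.5 normalized TPM, brain 20.2 and 38.7, heart 21.0 and 6.0, and liver 11.5, 11.1 and 7.0. The 2 skin samples were far above the rest. Both brain samples were above every gut and liver sample, and the other ranges overlapped. Gut minus skin was -7.23 on the log2 scale (standard error 0.71, adjusted p = 3.52e-05).

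DN42169, annotated only with the words granule membrane, and DN4280, annotated as the pancreatic granule membrane glycoprotein, were found almost in skin alone. DN42169 stood at 138 and 24.9 normalized TPM in skin p4 and p6, was listed at 0 in gut, heart and liver, and reached at most 0.979 in any brain or lung sample. DN4280 stood at 102 and 24.0 normalized TPM in skin, was listed at 0 in gut, and reached at most 1.77 elsewhere, in the p6 brain sample. Both were called higher in skin than in all other samples (log2 difference 5.70, standard error 0.45, adjusted p = 4.03e-06 for DN42169, and 5.35, standard error 0.45, adjusted p = 7.20e-06 for DN4280). Both were also called higher in skin than in gut (adjusted p = 4.76e-05 and 6.30e-05), where no fold is given because gut is listed at 0. Both had entered the tests only through the skin samples and 1 brain sample, so that these calls are no support for a skin pattern.

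The remaining GP2 row, DN1888, also annotated with a zona pellucida domain, was present in every organ. It stood at 172 and 48.8 normalized TPM in skin p4 and p6, 62.1 and 13.7 in the p4 and p5 gut samples, 16.0, 22.8 and 16.6 in lung, 15.5 and 16.6 in brain, 29.8 and 15.1 in heart, and 12.5, 28.5 and 8.18 in liver. The p4 gut sample was above the p6 skin sample, and the ranges of gut, heart, liver, lung and brain overlapped. It was not called between gut and skin (log2 difference -1.61, standard error 0.73, 95% interval -3.20 to -0.01, adjusted p = 0.243) or in skin against all other samples (adjusted p = 0.0560). It was called in the latter without the p4 gut sample (log2 difference 2.38, adjusted p = 0.0121) and with the animal as a replicate block (adjusted p = 0.0394 by title).

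The copies of GP2 were thus used unequally. DN25453 made up 85.4% and 87.3% of GP2 in the p4 and p6 skin samples and 8.78% and 40.5% in the p4 and p5 gut samples, whereas DN1888 made up 6.10% and 6.34% in skin and 91.2% and 59.5% in gut. Reads that fit several copies were placed by the authors' alignment, so the split between rows of 1 symbol is uncertain. With all rows of a symbol summed, GP2 was lower in gut than in skin by 5.18 on the log2 scale (standard error 0.70, adjusted p = 4.1e-04), and AGR2 differed by 0.41 (standard error 0.62, adjusted p = 0.801).

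Counted over the 10 rows, a call being an adjusted p under 0.05 and a log2 difference beyond 1, 3 were higher in gut than in skin (MUC2 DN10017, TFF2 and REG4), where 3.94% of all 16317 rows tested were, and 5 were higher in skin than in gut (the GP2 rows DN25453, DN42169 and DN4280, AGR2 DN118110 and MUC2 DN253877), where 4.93% of all rows were. Only the 3 GP2 rows stayed called in skin without any 1 of the gut or skin samples. Against all other samples, the same 3 rows were called higher in gut, beside 1.86% of all rows, and the same 3 GP2 rows in skin, beside 1.94%. Of the 5 rows higher in skin than in gut, 3 had entered the tests only through the skin samples and 1 brain sample, so that their count is no support for a skin pattern. The same holds for GP2 DN42169 and DN4280 among the rows called in skin against all other samples. The 10 rows are copies of 5 symbols and are not independent of each other.

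**Figure D2:**
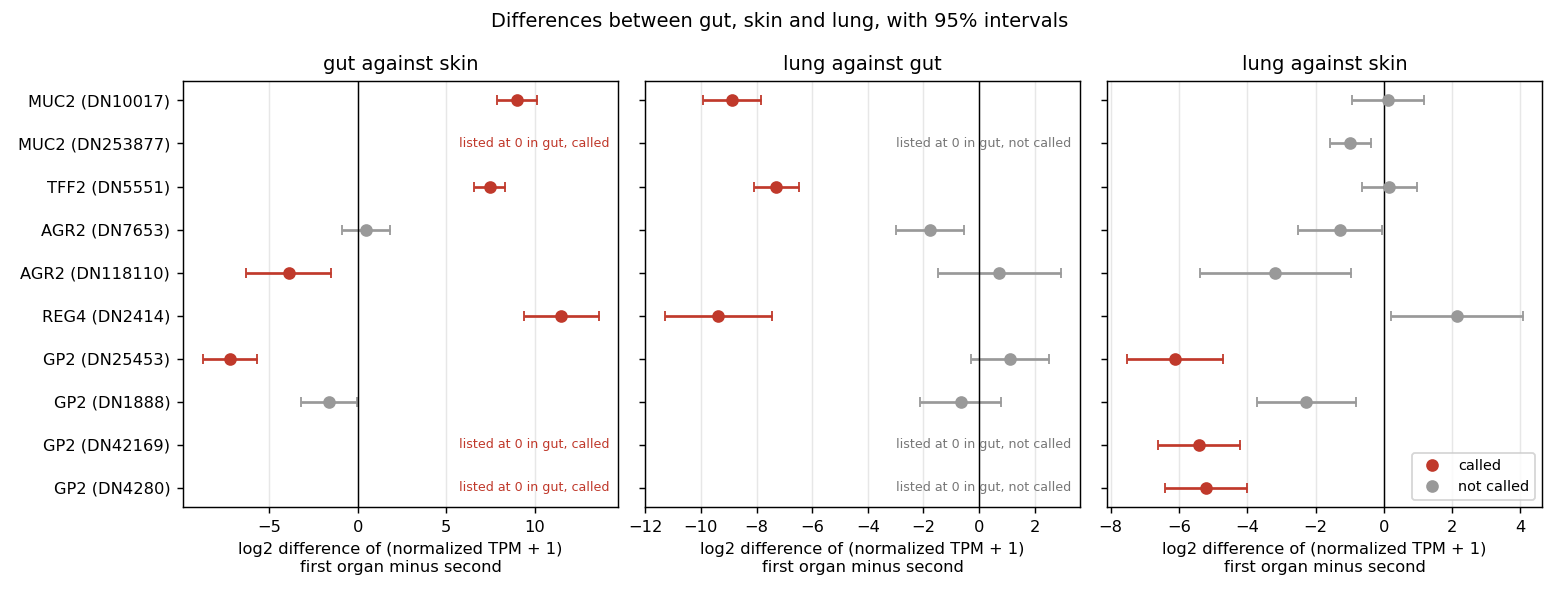
Log2 difference of (normalized TPM + 1) with its 95% interval for each row, in gut against skin, lung against gut and lung against skin, with called rows in red and the rows that gut lists at 0 marked in words. MUC2 (DN10017), TFF2 and REG4 lie 7.46 to 11.50 towards gut against skin, GP2 (DN25453) lies at -7.23, towards skin, and AGR2 (DN7653) crosses 0.

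The lungs shared AGR2 with gut and skin, and little else. None of the 10 rows was called higher in lung than in all other samples, where 0.821% of all rows were. AGR2 DN7653 was the only row above 40 normalized TPM in any lung sample, with 204 in p4, 503 in p5 and 603 in p6, and it ranked 367th, 137th and 129th of all rows there. All 3 lung samples were below both gut and both skin samples and above every brain, liver and heart sample. The difference of lung from gut was -1.76 on the log2 scale (95% interval -2.99 to -0.53, adjusted p = 0.0910) and from skin -1.28 (95% interval -2.52 to -0.05, adjusted p = 0.209), neither of which was called. With TPM as deposited, which lowers the lung values, both were called, at -2.46 from gut (adjusted p = 0.0199) and -2.07 from skin (adjusted p = 0.0374). The 9 hepatocyte markers summed to 26453 to 35934 normalized TPM in lung, 130292 to 251805 in liver and 3574 to 3867 in gut. These sums differed in make-up. For the p4 lung nearly all of it was the marker TF, at 25997 normalized TPM. The marker ALB stood at only 313 there, against 17819 in p5 lung and 13305 in p6 lung. The gut sums were mostly the marker APOB, at 3394 in p4 and 3189 in p5. AGR2 DN7653 stood at 35.7 to 99.97 normalized TPM in liver, below every lung sample. The part of liver transcripts in the lung values of AGR2 was not tested.

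In the direct comparisons, 3 rows were lower in lung than in gut, where 4.88% of all rows were. MUC2 DN10017 differed by -8.89 on the log2 scale (standard error 0.48, adjusted p = 2.79e-07), TFF2 by -7.30 (standard error 0.37, adjusted p = 1.95e-07) and REG4 by -9.37 (standard error 0.89, adjusted p = 2.9e-05). None was higher in lung than in gut, where 2.68% of all rows were. Against skin, the GP2 rows DN25453, DN42169 and DN4280 were lower in lung by 6.12, 5.42 and 5.21 on the log2 scale (adjusted p = 9.5e-05, 7.1e-05 and 9.5e-05), beside 5.93% of all rows, and none was higher, beside 2.99%. DN42169 and DN4280 had entered the tests only through the skin samples and 1 brain sample, so that they add no support here. REG4 stood above skin in lung by 2.13 on the log2 scale (95% interval 0.20 to 4.06, adjusted p = 0.181), which was not called. AGR2 DN118110 was not called lower in lung than in skin (adjusted p = 0.0747), but it was without the p6 lung sample, at -4.54 on the log2 scale (adjusted p = 0.00122). GP2 DN1888 was likewise not called lower in lung than in skin (-2.27, adjusted p = 0.0538), and was called without the p4 gut, p5 gut, p5 liver or p6 skin sample (adjusted p = 0.0269 to 0.0414) and with the animal as a replicate block (adjusted p = 0.0416 by title). MUC2 DN253877 differed between lung and skin by -0.98 on the log2 scale (adjusted p = 0.0479), short of a log2 difference of 1. It passed that limit without the p5 lung sample (-1.23, adjusted p = 0.0198) and with the block by title (-1.07, adjusted p = 0.0463). This row, near 1 normalized TPM in skin, had also entered the tests only through the skin samples and 1 brain sample. It adds no support here either.

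The animals differed within the lungs. REG4 was 7.55 times higher in the p4 lung sample than in the p6 lung sample. MUC2 DN10017, at the low levels of 3.38 and 0.645 normalized TPM, was 5.25 times higher in p4. AGR2 DN7653 was 2.95 times higher in p6 than in p4 and AGR2 DN118110, at 35.8 and 1.03, was 34.8 times higher. Each is a ratio between single samples with no replicate. Of all rows tested, 14.9% lay over 2-fold apart between these 2 samples, on the scale of normalized TPM + 1. On that scale the log2 difference of MUC2 DN10017, p6 minus p4, was -1.41. Of the ciliated cell markers, 8 of 11 were in the table. They summed to 21.4 to 25.9 normalized TPM in lung against 22.8 to 31.0 in gut and 31.2 to 32.9 in skin. The goblet cell markers other than these 10 rows summed to 69.3 to 94.1 in lung against 613 and 994 in gut. The gut sums were mostly the marker AGR3, at 560 and 941 against 19.2 to 24.2 in lung. The markers ZG16 and ITLN1 were also lower in every lung sample than in gut, and CLCA1 overlapped. The markers FCGBP, MUC5AC and MUC5B went the other way. FCGBP stood at 4.54 to 22.8 in lung against 1.54 and 4.50 in gut. MUC5AC stood at 4.29 to 12.5 against 2.93 and 2.50, and MUC5B at 30.5 to 34.6 against 25.6 and 30.3.

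The 2 gut samples agreed on some rows and not on others. MUC2 DN10017 stood at 1085 and 1025 normalized TPM in p4 and p5 and TFF2 at 289.6 and 271.6, ratios of 1.06 and 1.07 towards p4, and the ratio of MUC2 to TFF2 was 3.75 and 3.77. REG4 was 6.71 times higher in p5 than in p4, so that the ratio of REG4 to MUC2 was 2.41 in p4 and 17.1 in p5. AGR2 DN7653 was 2.51 times higher in p5. GP2 DN1888 went the other way, 4.55 times higher in p4, and the scarce AGR2 DN118110 was 3.26 times higher in p4.

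Of the 10 rows, 4 lay over 2-fold apart between the gut samples on the scale of normalized TPM + 1, as did 21.3% of all rows tested. Of all rows tested, 1.37% were further apart than REG4, 3.1% further than GP2 DN1888 and 11.7% further than AGR2 DN7653. With 1 sample a side there is no test of these differences. With TPM as deposited REG4 stood at 2672 and 17090 in p4 and p5, a ratio of 6.40.

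**Figure D3:**
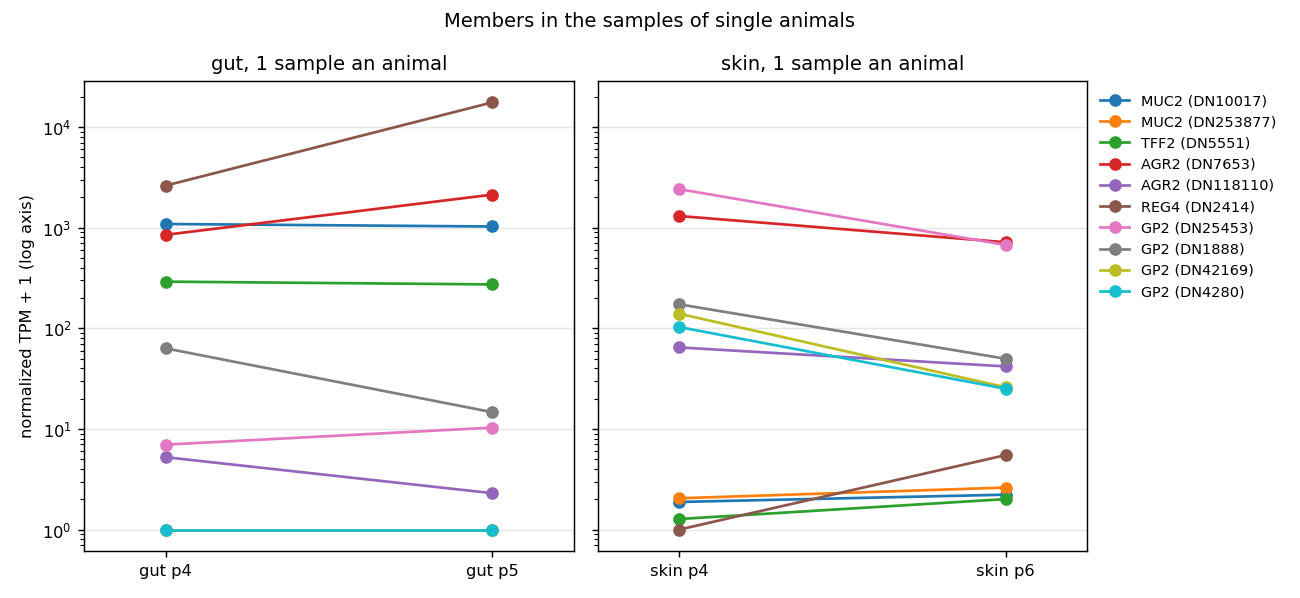
Normalized TPM + 1 (log axis) of the 10 rows in the 2 gut samples (left, p4 and p5) and the 2 skin samples (right, p4 and p6), with a line joining the values of each row. MUC2 (DN10017) and TFF2 run level between the gut samples while REG4 goes from 2616 to 17545, and all 4 GP2 rows are lower in the p6 than in the p4 skin sample.

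Other markers moved between the gut samples too. The absorbing cell genes FABP1 and ANPEP stood at 8233 and 64.8 normalized TPM in p4 and at 17900 and 984 in p5. AGR3, a close relative of AGR2, stood at 560 and 941. The stomach peptide GKN1 stood at 63.3 in p4 and 130 in p5. The other stomach markers in the table were scarce and went both ways. GKN2 stood at 3.20 in p4 and 2.70 in p5, PGA5 at 1.84 and 0, and PGC at 0 and 0.197. The 9 absorbing cell markers in the table went both ways, 5 higher in p5 and 4 in p4, among the latter MEP1B, a brush border protease, with 3203 in p4 and 1440.5 in p5. Some pancreatic genes were on the side of p4: the protease gene CTRB1 stood at 144 in p4 and was listed at 0 in p5, and the fat-digestion cofactor CLPS stood at 3462 and 2486. AMY2A stood at 27.1 and 0.995 in gut, but higher outside it, at 524 and 990 in skin, 159 and 812 in heart and 168 in the p6 brain sample. PRSS2 and PTF1A, also markers of the pancreas, were under 0.5 normalized TPM in both gut samples. The part of these other cell types in the REG4, AGR2 and GP2 differences was not tested.

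The 2 skin samples differed in all 4 GP2 rows and, at low levels, in REG4. GP2 DN25453 was 3.59 times higher in p4 than in p6, DN1888 3.53 times, DN42169 5.56 times and DN4280 4.23 times, while AGR2 DN7653 was 1.82 times and AGR2 DN118110 1.56 times higher in p4. REG4, listed at 0 in p4 and at 4.50 normalized TPM in p6, and TFF2, at 0.272 and 1.01, went the other way. Over 2-fold apart on the scale of normalized TPM + 1 were 10.4% of all rows tested. On that scale the log2 difference of TFF2, p6 minus p4, was 0.66, short of 2-fold. KRT5 stood at 5233 normalized TPM in p4 and 1957 in p6, and the summed goblet cell markers at 2111 and 987, and their part in the GP2 difference was not tested.

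Across the 14 samples, the rows fell into a gut pattern, a skin pattern and that of AGR2. Pearson's r of log2(normalized TPM + 1) was 0.969 between MUC2 DN10017 and TFF2, 0.954 between MUC2 DN10017 and REG4, 0.986 between GP2 DN42169 and DN4280, and 0.981 between GP2 DN25453 and DN4280. It was 0.582 between the 2 AGR2 rows and 0.542 between MUC2 DN10017 and AGR2 DN7653. For AGR2 DN118110 it was higher with GP2 rows, at 0.772 with DN25453, 0.757 with DN4280 and 0.723 with DN42169. These values describe 14 samples from 6 organs, and those within the gut or the skin pattern rest on the 2 samples of that organ.

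Among the symbols whose pattern was most like that of MUC2 DN10017 over the 14 samples were the intestinal homeobox factor CDX1 (r = 0.995), CLPS (r = 0.994), the gut peptide GUCA2B (r = 0.990) and KY (r = 0.989). CDX1 stood at 258 normalized TPM in gut p4 and 269 in gut p5, and so was nearly level between the animals, as was MUC2. Closest to TFF2 were MEP1B (r = 0.979), KY (r = 0.977), CDX1 (r = 0.976), PLEKHG3 (r = 0.975) and MOGAT2 (r = 0.974), a lipid synthesis enzyme of the gut. Closest to REG4 were ZAN (r = 0.971), FASN (r = 0.964, a copy at 13.0 and 26.6 normalized TPM in gut), CDX1 (r = 0.957), MUC2 (r = 0.954) and GKN1 (r = 0.954). ZAN stood at 22.4 and 63.0 normalized TPM in gut p4 and p5, GKN1 at 63.3 and 130, so that these, like REG4, were higher in p5.

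For AGR2 DN7653 the closest were the epithelial serine protease PRSS8 (r = 0.965), PRRG2 (r = 0.930), the peptide transporter TAP1 (r = 0.893), PRR15L (r = 0.876) and FAM160A1 (r = 0.876). PRSS8 stood at 17.3 and 23.9 normalized TPM in gut, 28.0 and 20.9 in skin, 5.34 to 6.32 in lung and at most 4.01 elsewhere, and so shared the order gut and skin, then lung, then the rest. For GP2 DN25453 the closest were SOS2 (r = 0.984), MAL (r = 0.982), UPK3BL (r = 0.981), the GP2 row DN4280 (r = 0.981) and ATP1B2 (r = 0.981). ATP1B2, a sodium pump subunit, stood at 831 and 338 normalized TPM in skin p4 and p6 and at 0.898 and 3.19 in gut, whereas the copies of SOS2 and MAL did not exceed 6.15 in any sample.

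Mucins other than MUC2 lay on both sides. Of 19 listed mucins and mucin-like genes, 9 were in the table and tested, 3 of them higher in gut than in skin and 3 lower, beside 3.94% and 4.93% of all rows, with a median log2 difference of -0.73 against 0 over all rows tested. MUC5AC, the mucin of the mammalian stomach and airway surface, stood at 754 and 114 normalized TPM in skin p4 and p6 and 2.93 and 2.50 in gut (gut minus skin -6.31 on the log2 scale, standard error 0.68, adjusted p = 7.0e-05). OTOG, an otogelin of the inner ear in mammals, stood at 156 and 77.8 in skin and 0.588 and 0.811 in gut (adjusted p = 1.3e-04), and the membrane mucin MUC4, which is named here after its values were seen, was the third lower in gut (adjusted p = 5.2e-04).

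Higher in gut were the membrane mucin MUC17, at 18.3 and 33.9 normalized TPM in gut and 6.17 and 5.61 in skin (log2 difference 1.92, adjusted p = 0.00267), VWF (1.64, adjusted p = 0.0120) and MUC5B (1.02, adjusted p = 0.0338). The MUC5B call was lost without either gut sample, either skin sample or the p5 or p6 lung sample (adjusted p = 0.0534 to 0.241) and with the animal as a replicate block (adjusted p = 0.0626 by title), and VWF was lost without the p4 gut or p4 skin sample (adjusted p = 0.0903 and 0.0988). MUC5B had 16 rows, of which the one with the highest mean, DN6177, stands for it, at 22.12 normalized TPM. The next, DN115, had a mean of 22.08 and was lower in gut (log2 difference -2.27, adjusted p = 0.00505). It stood at 94.6 and 35.8 normalized TPM in skin and 12.6 and 10.1 in gut. The scarcer DN4527 and DN127662 were also lower in gut (adjusted p = 0.00141 and 0.0122). DN127662 had entered the tests only through the skin samples and 1 brain sample, and so adds no support. No other MUC5B row was called higher in gut. These rows other than DN6177 are named here after their values were seen.

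Among 18 listed proteins secreted by goblet cells, 5 were in the table and 4 tested. Of these, 1 was higher in gut than in skin and 1 lower, beside 3.94% and 4.93% of all rows. The median log2 difference was 1.39, against 0 over all rows tested. FCGBP, a large mucus protein, was the one lower in gut, with 954 and 685 normalized TPM in skin p4 and p6 and 1.54 and 4.50 in gut (log2 difference -7.76, standard error 0.89, adjusted p = 1.1e-04). The lectin ITLN1 was higher in gut, at 6.89 and 4.88 normalized TPM against 0.150 and 0 in skin (log2 difference 2.67, adjusted p = 0.00155). AGR3 stood at 560 and 941 in gut and 377 and 174 in skin and was not called (adjusted p = 0.0929), nor was the granule lectin ZG16 (adjusted p = 0.351).

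Of 24 listed goblet cell regulators and secretory pathway genes, 15 were in the table and 12 tested. Among those tested, 2 were higher in gut than in skin and 2 lower, beside 3.94% and 4.93% of all rows. The median log2 difference was 0.15, against 0 over all rows tested. ATOH1, the transcription factor that secretory cells of the mouse intestine require, stood at 85.7 and 100.4 normalized TPM in gut p4 and p5, 5.07 and 2.60 in skin and at most 1.43 elsewhere (gut against skin 4.33, standard error 0.35, adjusted p = 8.7e-06). GFI1, which acts after ATOH1 in mouse gut, was higher in gut by 1.84 (adjusted p = 0.00975), a call lost without the p5 gut sample or either skin sample (adjusted p = 0.0599 to 0.0872). The granule transport genes SYTL2 and RAB27A were lower in gut, by 3.47 (adjusted p = 0.00248) and 1.55 (adjusted p = 0.0345). RAB27A was lost without either gut sample, the p5 or p6 lung sample or the p4 skin sample (adjusted p = 0.0509 to 0.277). The folding enzymes HSPA5 and PDIA6 did not pass (log2 differences 0.12 and 0.69, adjusted p = 0.939 and 0.236).

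Of 26 listed mucin O-glycosylation genes, 11 were in the table and 9 tested, 1 of them higher in gut than in skin and none lower (median log2 difference 0.10), which is near the 3.94% and 4.93% of all rows. The galactosyltransferase B4GALT1 was higher in gut by 1.92 (adjusted p = 0.00845), a call lost without the p4 gut or p6 skin sample (adjusted p = 0.0625 and 0.0810). FUT2, a fucosyltransferase, and SLC35A1, a sialic acid carrier, were not called (log2 differences -1.37 and 0.75, adjusted p = 0.0673 and 0.182).

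Of 28 listed mucosal antimicrobial and barrier proteins, 6 were in the table and tested. Among them, 3 were higher in gut than in skin and none lower, beside 3.94% and 4.93% of all rows. The median log2 difference was 2.05, against 0 over all rows tested. CUZD1, which in mammals is a zona pellucida domain protein of pancreatic secretory granules like GP2, stood at 353 and 77.0 normalized TPM in gut p4 and p5 and at most 0.855 elsewhere (gut against skin 6.85, standard error 0.53, adjusted p = 5.9e-06). DMBT1, a scavenger glycoprotein of mucus, stood at 28.4 and 12.5 in gut and 1.28 and 1.85 in skin (log2 difference 2.97, adjusted p = 0.00225). The third was the peroxide-making oxidase DUOX2 (log2 difference 2.11, adjusted p = 2.0e-04), named here after its values were seen. BPIFC and PLA2G2A were not called (log2 differences 0.25 and 2.0, adjusted p = 0.833 and 0.206), and PLA2G2A stood at 44.7 normalized TPM in p4 and 6.97 in p5 gut. The lists were drawn up with earlier results of these data known, and genes missing from the table were not analysed.

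**Figure D4:**
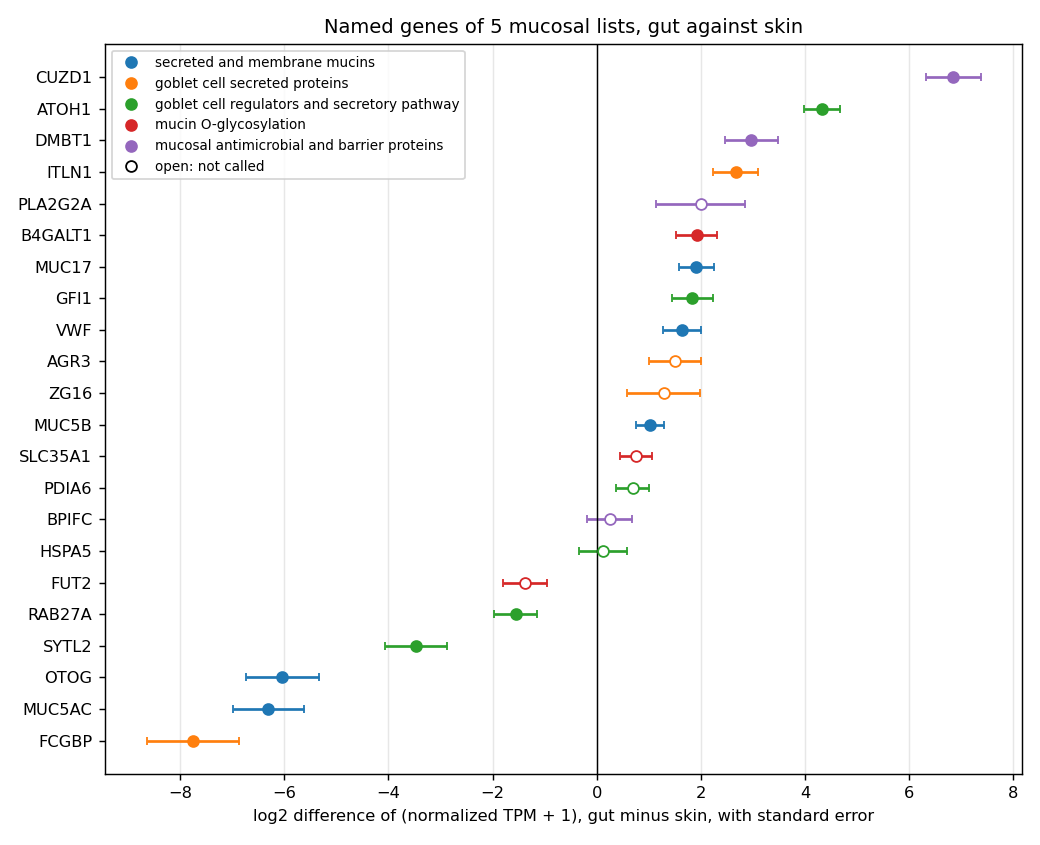
Log2 difference of (normalized TPM + 1) in gut minus skin, with its standard error, for the named genes of 5 lists, with filled points called and open points not called, and 1 colour per list. CUZD1 and ATOH1 lie farthest towards gut at 6.85 and 4.33, and OTOG, MUC5AC and FCGBP farthest towards skin at -6.04, -6.31 and -7.76.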

How the data were processed

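RNA-seq of 14 samples from 6 organs of 3 olms was analysed. Reads were trimmed and mapped by the authors with bwa mem against 1 transcript per annotated gene, the longest, from an assembly of animal p4, and quantified with featureCounts. The deposited values are TPM by the authors, and how these were computed, and whether reads sharing a molecular identifier were merged, is not given in the sources used here. TPM hold no counts, so the precision is that of the spread between samples, and no count model was fitted. The table has a column for each sample and no other value column.

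Symbols are those of the deposited annotation, which 10313 rows carry. TPM were divided by a factor per sample, the median ratio to the gene-wise geometric mean over 13067 genes detected throughout, and taken as log2(normalized TPM + 1), a scale that understates changes of low genes. Rows reaching 1 TPM in 2 or more samples (16317) were fitted in limma 3.58.1 under R 4.3.3 with a variance trend, either an organ against all other samples or as a contrast in a model of 6 organ means. P-values are two-sided and adjusted by Benjamini-Hochberg over all 16317 rows. In the contrasts they rest on the spread between the 2 or 3 animals of an organ, pooled over all 6 organs. In an organ against all other samples, the spread also holds the differences among the other organs. A call needs an adjusted p under 0.05 and a log2 difference beyond 1. The procedure was tested on simulated data.

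Members and lists were chosen with earlier results of these data known. Named are all rows of the 5 symbols, the 5 symbols most correlated with the most abundant row of each, and of each list the 3 most abundant members and up to 2 called in each direction. Some genes that this rule or the marker lists take in are not reported here. A symbol with several rows is stood for by its most abundant one. Further marker sums were those of leukocytes (2 of 12 in the table, 55.8 and 122 normalized TPM in p4 and p5 gut) and stomach (4 of 12, 68.4 and 133, mostly GKN1). Skeletal muscle markers (4 of 12) summed to 63019 and 68282 in skin and at most 20.1 in gut.

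Samples of 1 animal are paired by origin. Their deviations from the organ means had a mean correlation of 0.156 over 28 pairs of the same animal and -0.083 over 53 other pairs. The supplementary sample table gives animal p6 for gut p5 and p5 for heart p6, and both readings were used as a block. Other alternatives were pseudocounts of 0.1 and 5, other filters, TPM as deposited, quantile normalization, robust variances, the mean of the other 5 organs, the 2 organs alone, rows of a symbol summed, and each sample left out.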

Additional observations from a re-analysis of the deposited data

How the results depend on the processing

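The counts of rows higher in gut than in skin, in lung or in all other samples, and of rows higher in lung, stayed within 1.5 times their value under all settings tried. Higher in skin than in gut were 5 rows, which became 3 with a pseudocount of 0.1, 1 with the samples of the 2 organs alone and 1 of 5 symbols with rows summed, and 3 to 5 with each sample left out (3 without either gut or either skin sample). Higher in skin than in all other samples were 3 rows, which became 5 with a pseudocount of 5 (AGR2 DN118110 and GP2 DN1888 added), 7 against the mean of the other 5 organs and 1 symbol with rows summed. Higher in skin than in lung were 3 rows, which became 5 with a pseudocount of 5, 7 with TPM as deposited, 5 with a replicate block by the animal of the title (MUC2 DN253877 and GP2 DN1888 added) and 1 symbol with rows summed. The replicate block ended the call of AGR2 DN118110 between gut and skin by title (adjusted p = 0.130) and by the sample table (0.0608), and that of MUC5B by title (0.0626), and no other call that was followed under the alternatives. MUC4, DUOX2 and the MUC5B rows DN115, DN4527 and DN127662, named after their values were seen, were not followed.

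No log2 difference of a called gene followed in this way changed sign. Of 813 values of these genes under the alternatives, 59 lost the call, 17 of them AGR2 DN118110, 11 MUC5B and 7 MUC2 DN253877. GP2 DN42169 and DN4280 lost the call between gut and skin with the 2 organs alone (adjusted p = 0.0822 and 0.0657), as did 10 of the 14 called list genes that were followed. Over 2-fold apart between the gut samples were 4 rows, and 3 with a pseudocount of 5. Depth cannot be read from TPM, so differences among rows near 0, such as MUC2 DN253877, are limited by it to an unknown degree.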

Other observations

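Brain shared some transcripts of these lists with skin, among them FCGBP and OTOG, but not others that were higher in skin than in gut. MUC5AC stood at 5.86 and 8.16 normalized TPM in brain, against 12.5 in the p5 lung sample. RAB27A stood at 33.5 and 25.7 in brain, against 37.5 and 35.0 in gut. SYTL2 stood at 6.91 and 3.45 in brain, against 11.4 in the p4 lung sample. FCGBP stood at 272 in brain p4 and 82.7 in brain p6 (normalized TPM) and at most 22.8 in gut, heart, liver and lung, and OTOG stood at 59.3 and 23.5 in brain and at most 6.02 in those organs. AGR2 DN118110 stood at 4.44 and 12.1 in brain, below the 35.8 of the p6 lung sample, and at most 4.23 in gut, heart, liver and the other lung samples. GP2 DN42169 and DN4280 were listed at 0 in the p4 brain sample and stood at 0.979 and 1.77 in p6, against at most 0.758 and 0.759 in lung. Epidermal markers, 6 of 13 in the table, summed to 267 and 270 normalized TPM in brain against 45.7 to 155 in gut, heart, liver and lung and 5358 and 2053 in skin, and their part in the brain values was not tested.

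SYTL2, listed for granule release, was highest in heart, with 697 and 225 normalized TPM in p4 and p6, against 56.7 and 47.6 in skin and at most 11.4 elsewhere. FUT2 was highest in liver, with 118, 45.9 and 102 normalized TPM in p4, p5 and p6, against 34.7 to 46.5 in lung, 36.3 and 36.0 in skin and 16.4 and 10.9 in gut. MUC5B DN6177 stood at 30.5 to 34.6 in the 3 lung samples, 25.6 and 30.3 in gut and 15.0 and 11.6 in skin, while MUC5B DN4527, chosen after its values were seen, stood at 19.0 and 5.57 in skin and at most 1.43 elsewhere. The row that stands for MUC5AC, at 754 and 114 in skin, has the same assembly number, DN4527. Whether these rows are separate genes was not tested.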
